A study of Mus musculus with 6 samples.

Results

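The genes described here are the nuclear-encoded subunits of oxidative phosphorylation, measured in the dorsal striatum of mice. Members were chosen by symbol, as rows whose names follow the patterns for Nduf (complex I), Sdh (complex II), Uqcr (complex III), Cox4 to Cox8 (complex IV) and Atp5 (complex V) subunits. The rule found 84 of the 34745 genes in the deposited table, with 37 in complex I, 4 in complex II, 8 in complex III, 18 in complex IV and 17 in complex V. Symbols alone defined the members, and the choice was made with earlier results of these data known. The study compared 3 libraries from mice heterozygous for Ash1l (Ash1l het) with 3 from wild type (WT) mice, all on the C57BL/6 strain and aged 1 year. The labels give no allele for the Ash1l mutation, no treatment and no statement that each library is a separate animal, so the p-values reflect only how these samples vary. Ash1l encodes a methyltransferase of histone H3.

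Oxidative phosphorylation takes electrons from NADH at complex I and from succinate at complex II, passes them through complex III to oxygen at complex IV, and uses the proton gradient so built to make ATP at complex V. Most subunits are encoded in the nucleus and imported, while a small set of core subunits is encoded by mitochondrial DNA. Neurons of the striatum depend on this pathway, and inhibitors of complex II injure the striatum in rodents. Symbols do not follow the complexes exactly. The protein of Ndufa4 has been reassigned to complex IV, Atp5s and Atp5sl match the pattern but do not encode ATP synthase subunits, and Cyc1 (complex III) and Ndufab1 (complex I) encode subunits under other names.

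Library totals ran from 12080663 to 18798694 counts, and the normalised counts below, in CPM, are scaled to library size by the trimmed mean of M-values (TMM) method. Ash1l stood at 281, 198 and 253 CPM in Ash1l het replicates 1 to 3 and at 308, 295 and 293 CPM in WT replicates 1 to 3. All 3 Ash1l het values lay below all 3 WT values, with a log2 fold change (Ash1l het over WT; log2 change below) of -0.29 (SE, standard error, 0.13) and an edgeR quasi-likelihood adjusted p of 0.858. The protocol in the labels describes male mice, whereas Xist, the RNA of the inactive X chromosome, lay at 1956 to 2957 CPM in all 6 libraries, so the libraries go against that label. The 12 marker genes of striatal spiny projection neurons, among them Drd1, Drd2 and Ppp1r1b, all passed the expression filter, with a summed level of 8899 to 10990 CPM in Ash1l het and 9509 to 10630 CPM in WT.

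In the fit over all genes, 0 of the 80 members that could be tested passed at an adjusted p under 0.05, against 2 of 15267 genes, or 0.0131%. The other 4 members, Cox7a1, Cox7b2, Cox8b and Cox8c, did not pass the filter on low counts. With DESeq2 39 genes and 0 members were called (0.256% of genes), and with edgeR's exact test 39 genes and 0 members (0.255%). At an unadjusted edgeR quasi-likelihood p under 0.05 there was 1 member, Ndufv2, which was lower in Ash1l het. Of all genes 5.78% lay under that value, 3.1% higher and 2.67% lower. The fitted change was under 1.5-fold for 80 of 80 tested members. The 95% interval of the change lay within 2-fold either way for 66 of them and within 1.5-fold for 43. For the remaining members, a difference of that size lay inside the interval. By sign alone 55 of 80 members were higher in Ash1l het, against 51.4% of all genes, and this count was 14 of 80 without Ash1l het replicate 2. The median log2 fold change was 0.06 over the members and 0.01 over all genes, and over the members it was -0.14 without Ash1l het replicate 2.

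The 2 groups overlapped for nearly every member, and the Ash1l het libraries spread widely. A wider spread within Ash1l het was not confined to the members. Over 13165 well-counted genes, the chi-square per degree of freedom between paired-off libraries was 28.85 to 36.31 within Ash1l het. Within WT it was 12.78 to 14.95. Ash1l het replicate 1 was the lowest of the 6 libraries for 54 of 80 members, against 23.4% of all genes. Ash1l het replicate 2 was the highest for 57 of 80 members, against 24.1% of all genes. Both held at once for 43 of 80 members (53.8%), against 7.6% of all genes. This pattern was noticed in the data and is given as a description of these libraries, with no test.

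The median member lay 0.25 below the WT mean on the log2 scale in Ash1l het replicate 1 (a value of -0.25), 0.33 above it in replicate 2 and at -0.02 in replicate 3. The WT libraries lay at -0.06, 0.00 and 0.06. The same medians over all genes were 0.01, 0.02 and 0.01 in the Ash1l het libraries. Replicate 2 was at least 2-fold above replicate 1 for 25 of 80 members (31.3%), whereas this held for 5.42% of all genes. In the other direction, 0 of 80 members were at least 2-fold higher in replicate 1 than in replicate 2, against 2.46% of all genes. Among the WT libraries, the highest was at least 2-fold the lowest for 0 of 80 members, against 8.73% of all genes.

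**Figure D1:**
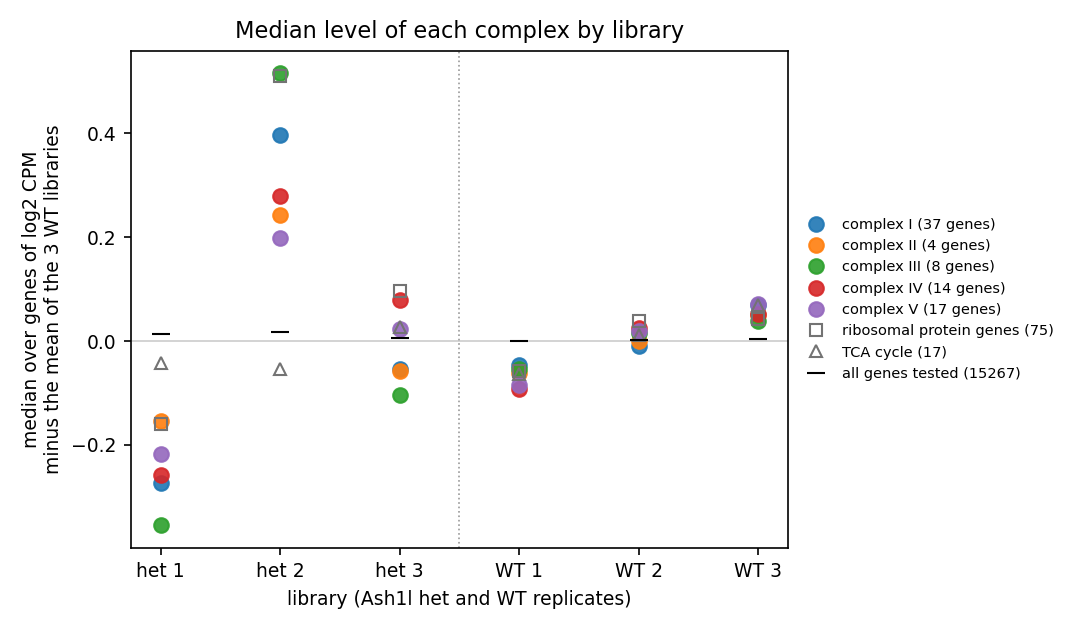
Median over the tested genes of each complex of log2 CPM minus the mean log2 CPM of the 3 WT libraries, for each of the 6 libraries, with ribosomal protein genes, TCA cycle genes and all genes for comparison. The 5 complexes lie between -0.35 and -0.15 in Ash1l het replicate 1, between 0.20 and 0.52 in replicate 2, and between -0.10 and 0.08 in replicate 3.

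By the median of their members, all 5 complexes took part. In Ash1l het replicates 1, 2 and 3 the median deviation from the WT mean was -0.27, 0.40 and -0.05 for complex I. It was -0.15, 0.24 and -0.06 for complex II and -0.35, 0.52 and -0.10 for complex III. Complex III thus had the widest distance between replicates 1 and 2 of the 5 medians. Complex IV lay at -0.26, 0.28 and 0.08, and complex V at -0.22, 0.20 and 0.02. Members both lowest in replicate 1 and highest in replicate 2 numbered 21 of 37 in complex I, 3 of 4 in complex II, 5 of 8 in complex III, 7 of 14 in complex IV and 7 of 17 in complex V.

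Summed levels show the same spread, except in complex II, and a smaller distance between the group means. All members together took 3871, 5189 and 4514 CPM in Ash1l het and 4351, 4564 and 4762 CPM in WT, or 4525 ± 659 and 4559 ± 206 CPM (SD, n = 3 each). Complex IV had the widest range, with 403, 832 and 650 CPM in Ash1l het and 605, 645 and 687 CPM in WT. Its means were 628 ± 215 and 646 ± 41.0 CPM (SD, n = 3 each), so the means differed by less than the spread of either group. Complex II varied least, at 427, 459 and 426 CPM in Ash1l het and 444, 443 and 462 CPM in WT. Its lowest sum was in Ash1l het replicate 3 and its highest in WT replicate 3.

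The promoters of a pair of members are shown because the genes contrast: Cox8a had the widest spread between Ash1l het replicates 1 and 2 among the most abundant members, and Ndufv2 was lower in all 3 Ash1l het libraries. In both, the window upstream of the start holds no annotated gene. Each window is the 250 bases before the RefSeq start site, 5′ to 3′ on the strand of the gene, with matches to the searched motifs in capitals. The Cox8a window is chr19:7217617-7217866 and the Ndufv2 window is chr17:66101560-66101809, both on the minus strand of GRCm38.p6.
Cox8a: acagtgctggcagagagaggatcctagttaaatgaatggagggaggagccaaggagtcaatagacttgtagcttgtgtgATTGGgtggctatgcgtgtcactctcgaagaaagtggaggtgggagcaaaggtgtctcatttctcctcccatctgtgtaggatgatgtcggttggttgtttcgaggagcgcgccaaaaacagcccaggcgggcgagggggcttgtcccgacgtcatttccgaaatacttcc
Ndufv2: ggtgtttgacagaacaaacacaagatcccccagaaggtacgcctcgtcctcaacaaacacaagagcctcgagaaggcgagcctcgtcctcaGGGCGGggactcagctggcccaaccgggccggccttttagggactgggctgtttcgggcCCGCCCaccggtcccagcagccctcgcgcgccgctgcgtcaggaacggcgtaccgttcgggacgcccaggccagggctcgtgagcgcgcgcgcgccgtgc
The capitals mark the reverse complement of CCAAT in Cox8a, and in Ndufv2 the Sp1 letters GGGCGG once on each strand.

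Across the members, 69 of 84 matched a RefSeq promoter entry, giving 75 windows of 300 bases (250 before and 50 after the start), set against 32851 windows in all. NRF1 is a transcription factor long known from promoters of respiratory chain genes, and its letters GCATGCGC stood in 13.3% of member windows and 2.71% of all windows. The YY1 letters AAGATGGC stood in 16.0% and 2.75%, and the ETS-type letters CCGGAAG, as read by the GABP factor, in 21.3% and 8.86%. The Sp1 letters GGGCGG stood in 38.7% and 35.7%, the CCAAT box in 42.7% and 37.4%, and the TATA box letters TATAAA in 10.7% and 13.6%. Both strands were searched, no motif was allowed a mismatch, and matches of different motifs may overlap. Member windows were richer in GC, with a median of 57.3% against 52.7%. These are counts of letters, not of bound sites.

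Complex I feeds electrons from NADH into the chain. Its 7 nuclear-encoded core subunits, which carry the flavin and iron-sulphur centres, include Ndufs1, Ndufs3, Ndufs7, Ndufs8, Ndufv1 and Ndufv2. Ndufv2, an iron-sulphur subunit of the NADH-oxidising arm (ENSMUSG00000024099; GRCm38 chromosome 17, 66078795 to 66101559, minus strand), stood at 45.4, 51.0 and 59.9 CPM in Ash1l het and at 60.4, 64.7 and 64.2 CPM in WT. The groups did not overlap, with Ash1l het replicate 3 just under the lowest WT library. The log2 fold change was -0.28 (SE 0.12), with an edgeR quasi-likelihood p of 0.0465 unadjusted and 0.857 adjusted, so it did not pass.

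In all, the groups did not overlap for 2 of 80 members, Ndufv2 among them, both lower in Ash1l het. Over all genes the groups were apart for 11.7%, and lower for 5.53%, so the members' share is below the background. In the higher direction 0 of 80 members were apart, against 6.18% of all genes. A member that is lowest in one Ash1l het library and highest in another overlaps WT by construction.

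Other core subunits of complex I lay on both sides of 0. Ndufs8 had a log2 change of -0.19 (SE 0.14) and Ndufs7 of -0.16 (SE 0.18), the latter with 22.0, 32.9 and 34.3 CPM in Ash1l het against 27.6, 35.1 and 36.8 CPM in WT. Ndufs1, the largest of the iron-sulphur subunits, had 0.06 (SE 0.10) and little spread, at 102, 113 and 108 CPM against 101, 99.0 and 110 CPM. Ndufs3 had 0.05 (SE 0.16) and Ndufv1, which binds NADH and the flavin, 0.02 (SE 0.16). As a group, the 7 core genes had median deviations of -0.37, 0.00 and -0.07 in the 3 Ash1l het libraries.

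The 26 accessory genes of the Ndufa, Ndufb and Ndufc families had median deviations of -0.29, 0.49 and -0.06. The low level in replicate 1 was therefore seen in both sets of genes, and the high level in replicate 2 in the median accessory gene and not in the median core gene. The difference between the sets was not tested. Replicate 2 was the highest library for 21 of 26 accessory and 3 of 7 core genes. Ndufb11, a membrane-arm subunit named after its values were seen, stood at 9.32, 34.1 and 15.8 CPM in Ash1l het, a 3.62-fold distance between replicates 2 and 1. Its WT libraries lay at 17.6, 17.6 and 18.5 CPM, between those extremes. The gene overlaps Rbm10 on the opposite strand, and reads of such pairs cannot be told apart if the counting did not use strand. The same limit holds for other members described here, among them Ndufb2 (Braf), Ndufa2 (Tmco6), Ndufa4l2 (Shmt2), Cox4i1 (Emc8) and Atp5d (Cbarp). Over all libraries Braf had 20938 counts against 1609 for Ndufb2, and Cbarp 17312 against 3729 for Atp5d.

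Among the other accessory genes, Ndufa2 had the largest fitted change of any member, with a log2 fold change of 0.51 (SE 0.38) that rests on replicate 2: it stood at 4.83, 11.3 and 3.90 CPM in Ash1l het and 4.55, 4.42 and 4.98 CPM in WT. Ndufb2 had 0.34 (SE 0.18), at 18.0, 21.8 and 17.8 CPM against 18.2, 11.9 and 15.4 CPM, with the groups overlapping through WT replicate 1. The most abundant of the accessory genes per length were Ndufb9, at a mean of 54.3 FPKM over the 6 libraries, and Ndufa8, at 39.0 FPKM. Ndufb9 had a log2 change of 0.06 (SE 0.19) and Ndufa8 of 0.09 (SE 0.14). Ndufa4 had 0.18 (SE 0.16), and its paralogue Ndufa4l2, a hypoxia-responsive gene, -0.19 (SE 0.36) at 1.09 to 3.06 CPM.

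**Figure D2:**
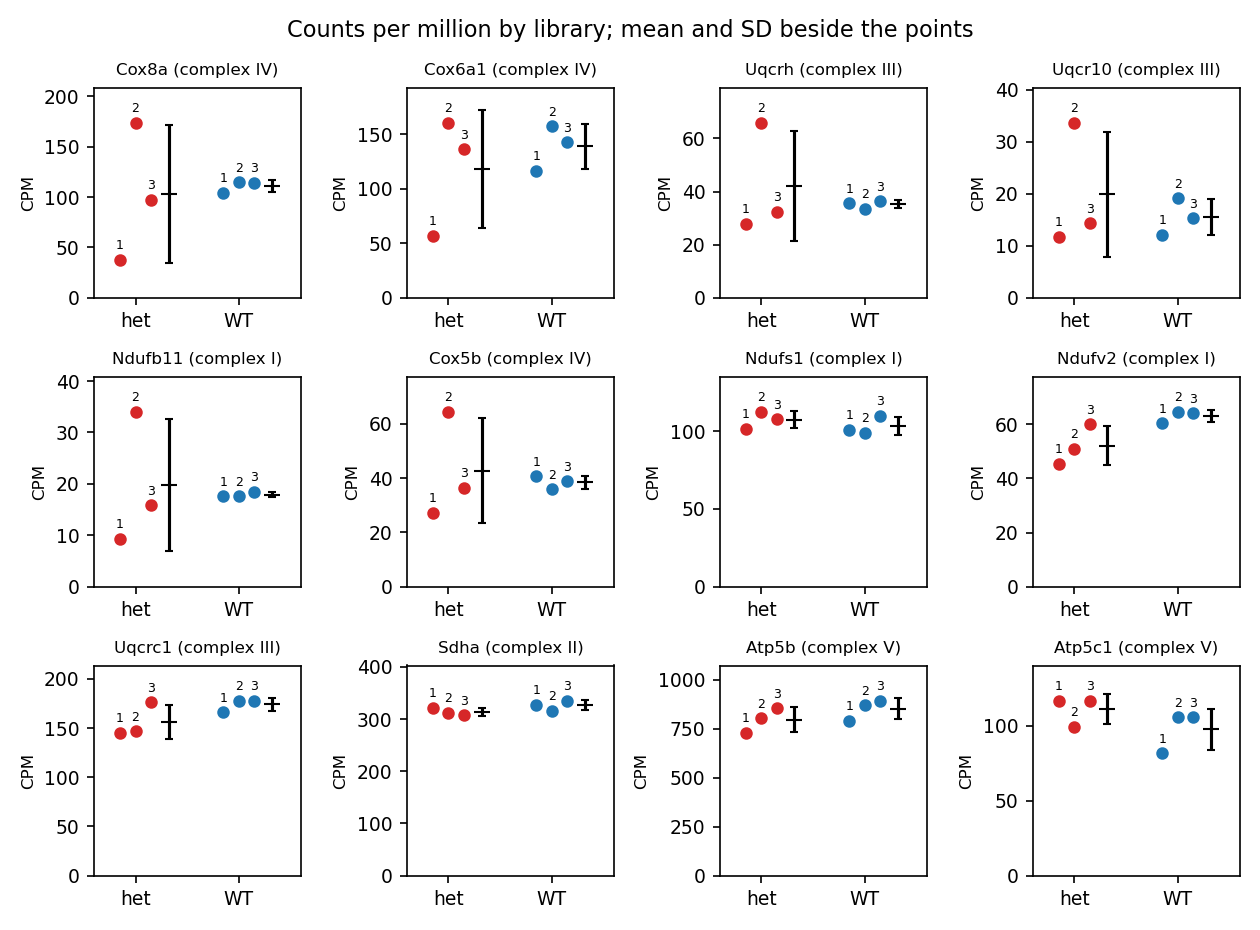
CPM of 12 members in each library, with Ash1l het in red, WT in blue, replicate numbers above the points, and mean ± SD (n = 3) beside them. The upper row and the first 2 panels of the middle row show genes with replicate 1 low and replicate 2 high in Ash1l het, such as Cox8a at 37.9 and 174 CPM. Sdha, at 307 to 322 CPM in Ash1l het, shows a narrow spread.

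Complex II is succinate dehydrogenase, which also belongs to the TCA cycle and is encoded by nuclear genes alone. Sdha, its flavin subunit, was the steadiest abundant member, at 322, 312 and 307 CPM in Ash1l het and 327, 316 and 336 CPM in WT. Its log2 fold change was -0.06 (SE 0.09), and the 95% interval ran from -0.27 to 0.16. The other 3 genes had replicate 1 lowest and replicate 2 highest. Sdhb, the iron-sulphur subunit, stood at 37.1, 49.4 and 37.8 CPM against 38.2, 42.0 and 42.7 CPM in WT. Sdhd, a membrane anchor, stood at 28.8, 45.4 and 37.9 CPM against 36.0, 42.3 and 38.0 CPM. Sdhc, the other anchor, stood at 38.7, 51.8 and 43.0 CPM against 42.6, 42.3 and 45.4 CPM. The log2 fold changes of these 3 genes lay from -0.05 to 0.03.

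Complex III passes electrons from ubiquinol to cytochrome c. Its 2 large core proteins did not share the swing of its small subunits. Uqcrc1 stood at 145, 147 and 176 CPM in Ash1l het and 166, 178 and 178 CPM in WT. The log2 fold change was -0.16 (SE 0.11). Uqcrc2 stood at 105, 118 and 118 CPM against 106, 108 and 115 CPM, with 0.05 (SE 0.10). Replicate 2 was 1.01 times replicate 1 for Uqcrc1 and 1.12 times for Uqcrc2. The Rieske iron-sulphur protein gene Uqcrfs1 was intermediate, at 25.2, 49.6 and 29.7 CPM against 33.7, 35.1 and 36.8 CPM.

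The small subunits of complex III differed more between libraries. Uqcr11, named after its values were seen, had the largest ratio of any tested member, 4.98-fold between replicates 2 and 1, at 5.64, 28.6 and 11.2 CPM. Its WT libraries lay at 11.7, 9.80 and 12.04 CPM. Uqcr10 stood at 11.7, 33.7 and 14.3 CPM against 12.1, 19.1 and 15.3 CPM, giving a log2 change of 0.36 (SE 0.42). Uqcrh, the hinge protein that helps dock cytochrome c1 and cytochrome c, stood at 27.9, 66.0 and 32.3 CPM against 35.7, 33.6 and 36.4 CPM, with 0.26 (SE 0.32). Uqcrq stood at 14.0, 38.2 and 24.1 CPM against 22.6, 31.0 and 25.8 CPM, with -0.06 (SE 0.34). In these 4 genes replicate 2 was the highest library of all 6. Uqcrb, at 46.1, 54.0 and 36.9 CPM against 41.3, 43.8 and 42.8 CPM, had replicate 3 lowest instead.

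Complex IV reduces oxygen to water, and many of its nuclear-encoded subunits exist in forms specific to a tissue. Cox8a, the ubiquitous form of the smallest subunit (ENSMUSG00000035885; chromosome 19, 7215158 to 7217616, minus strand), was the most abundant member per length, at a mean of 198 FPKM. It stood at 37.9, 174 and 97.3 CPM in Ash1l het and 104, 114 and 114 CPM in WT. The Ash1l het libraries thus lay far below, far above and just below the narrow WT range, with a 4.58-fold distance between replicates 2 and 1. The fitted log2 fold change was -0.11 (SE 0.53), and its 95% interval, -1.45 to 1.23, was among the widest of the members named here.

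The ubiquitous forms of the other variable subunits behaved alike in part. Cox6a1 stood at 57.0, 161 and 136 CPM in Ash1l het and 117, 158 and 143 CPM in WT, giving a log2 change of -0.24 (SE 0.38). Cox6b1 stood at 30.1, 68.5 and 54.0 CPM against 48.3, 52.6 and 52.8 CPM, with -0.01 (SE 0.27). Cox4i1, the usual form of the largest nuclear-encoded subunit, had replicate 1 lowest but replicate 3 highest within Ash1l het, at 83.5, 103 and 131 CPM. Its WT libraries, at 117, 98.9 and 144 CPM, spread as widely. Cox7a2 varied little, from 24.6 to 30.1 CPM in Ash1l het and from 24.4 to 28.5 CPM in WT. Cox7b stood at 32.6, 56.5 and 39.3 CPM against 35.6, 35.8 and 37.7 CPM, with 0.24 (SE 0.19).

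Cox7a2l encodes a factor linked to the joining of complexes III and IV into supercomplexes, a role not measured here. It stood at 47.8, 76.2 and 53.6 CPM in Ash1l het and 44.0, 47.9 and 50.5 CPM in WT, giving a log2 change of 0.32 (SE 0.17) and an unadjusted edgeR p of 0.0919. The groups overlapped through replicate 1. Cox5a and Cox5b, nuclear-encoded subunits around the mitochondrially encoded core, had log2 changes of 0.11 (SE 0.23) and 0.15 (SE 0.29). Cox5b stood at 27.3, 64.6 and 36.5 CPM against 40.6, 35.9 and 38.9 CPM.

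The tissue-restricted forms of complex IV were low throughout. Cox4i2, a form known from lung and from cells that sense oxygen, lay at 1.56 to 1.63 CPM in Ash1l het and 1.57 to 2.15 CPM in WT, against 83.5 to 144 CPM for Cox4i1. Per length, Cox4i2 was at a mean of 1.48 FPKM and Cox4i1 at 42.4 FPKM. Cox6a2, the heart and skeletal muscle form, was at 4.91 FPKM against 108 FPKM for Cox6a1. Cox6b2, the testis form, was at 0.31 FPKM against 101 FPKM for Cox6b1. None of these 3 passed, with log2 fold changes of -0.23 (SE 0.28) for Cox4i2, 0.10 (SE 0.25) for Cox6a2 and 0.40 (SE 0.39) for Cox6b2. The muscle form Cox7a1 had up to 0.586 CPM, in Ash1l het replicate 2, and was at 0 in 3 of 6 libraries. Cox7b2 had up to 0.196 CPM, Cox8b had counts in WT replicate 2 alone, and Cox8c had 0 counts in every library. Of the 6 muscle marker genes, 2 passed the filter, Actn2 and Acta1.

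Complex V is the ATP synthase. Its catalytic head was abundant and comparatively steady. Atp5b, the catalytic beta subunit and the second most abundant member per length at 119 FPKM, stood at 728, 804 and 855 CPM in Ash1l het and 791, 869 and 893 CPM in WT, giving a log2 change of -0.10 (SE 0.11). Atp5a1, the alpha subunit, stood at 443, 553 and 454 CPM against 486, 462 and 498 CPM, with 0.00 (SE 0.12). Atp5c1, the gamma subunit of the rotor, had replicate 2 as the lowest Ash1l het library, at 117, 99.5 and 117 CPM against 81.8, 106 and 106 CPM. Its log2 fold change was 0.18 (SE 0.13).

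Several small subunits showed the spread, and the 3 given first were named after their values were seen. Atp5k, a small membrane subunit, had the widest ratio in complex V, 3.44-fold between replicates 2 and 1, at 2.58, 9.19 and 3.57 CPM in Ash1l het and 5.13, 3.47 and 4.23 CPM in WT. Of the central-stalk subunits, Atp5d stood at 20.5, 56.2 and 40.4 CPM in Ash1l het and 36.8, 41.9 and 39.7 CPM in WT. Atp5e stood at 6.87, 18.9 and 8.52 CPM against 9.85, 10.1 and 7.82 CPM. The c subunits, which form the proton-driven ring, are encoded by 3 genes for the same mature protein. Atp5g3, the most abundant of them at 12.5 FPKM, stood at 27.3, 56.1 and 29.2 CPM against 35.9, 34.4 and 35.8 CPM. Atp5g1 did not follow it, at 20.8, 19.6 and 25.1 CPM against 23.3, 24.3 and 23.2 CPM, and Atp5g2 lay at 1.29 to 2.15 CPM in all 6 libraries. Atp5j, a subunit of the peripheral stalk, had a log2 change of 0.17 (SE 0.12) and Atp5l, a membrane subunit, 0.29 (SE 0.40). Atp5sl, which is not an ATP synthase subunit, had -0.15 (SE 0.15).

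**Figure D3:**
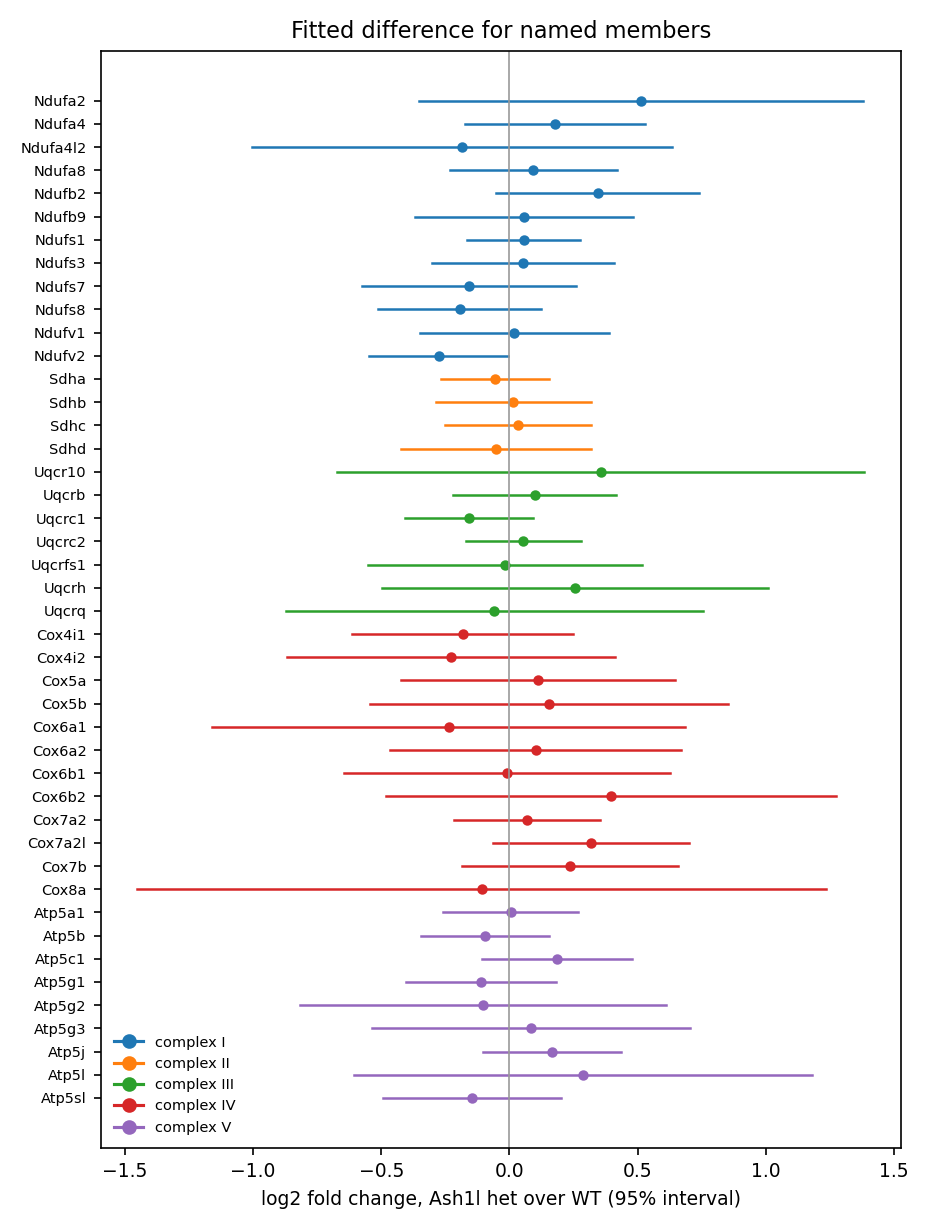
Fitted log2 fold change (Ash1l het over WT) of named members with its 95% interval, coloured by complex. All but Ndufv2 have intervals that include 0. Cox8a, Uqcr10 and Ndufa2 have wide intervals, and Sdha, Atp5b, Ndufs1 and Uqcrc2 narrow ones.

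Some members are uncertain as single-gene measurements. A stretch of at least 100 bases with at least 95% identity in an annotated pseudogene was found for 21 members. For 5 of them, Ndufb4, Cox7a2l, Cox7c, Atp5g2 and Atp5l, the best match was identical. Atp5l also matched 1 gene not annotated as a pseudogene, and its identical stretch may lie in that gene. Reads of such stretches may be split or dropped, and Cox7c (2.14 FPKM), Ndufb4 (1.44 FPKM) and Atp5g2 (0.79 FPKM) had low levels, whereas Cox7a2l was at 46.7 FPKM. The median level was 12.03 FPKM over the members with such a stretch and 12.4 FPKM over the 60 members with no match. Ndufc1, Uqcr10 and Cox5b matched only genes not annotated as pseudogenes, Cox5b with an identical stretch. Ndufc1 matched 25 other genes and Atp5g1 matched 20, and they stood at 2.64 and 2.31 FPKM. The deposited locus of Atp5o spans 247290 bases and overlaps 8 genes. The labels do not say how multiply mapped reads were treated.

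The spread between Ash1l het replicates 1 and 2 moved with gene length. The length of the gene model, as implied by the deposited FPKM, had a median of 2234 bases over the members and 5205 bases over all genes tested. Across the 80 members the log2 difference between replicates 2 and 1 had a Spearman coefficient of -0.492 with log2 length, and across all 15267 genes of -0.255. These are descriptions over genes, which share the same libraries and are not independent replicates. Among genes of over 500 and up to 1000 bases, the 16 members lay at -0.37 in replicate 1 and 0.64 in replicate 2, whereas the 402 other genes lay at -0.04 and 0.29. Among genes above 5000 bases, the 12 members lay at -0.09 and -0.02, and the 7930 other genes at 0.05 and -0.03.

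An offset that removes each library's trend with length left part of the pattern. The members' medians were then -0.21, 0.23 and -0.03 in Ash1l het replicates 1 to 3. Members lowest in replicate 1 and highest in replicate 2 numbered 36 of 80, against 6.41% of all genes. Over the 8 alternatives run for this count, which were chosen after seeing the data, it ran from 36 to 46. The share of all genes ran from 6.41% to 9.83%. Without the low-count filter the count was 45 of 83, and with a WT library left out fewer libraries were ranked. Of the members above 3000 bases, 8 of 25 had replicate 2 below the WT mean. The part of RNA quality or library preparation in the spread was not tested.

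**Figure D4:**
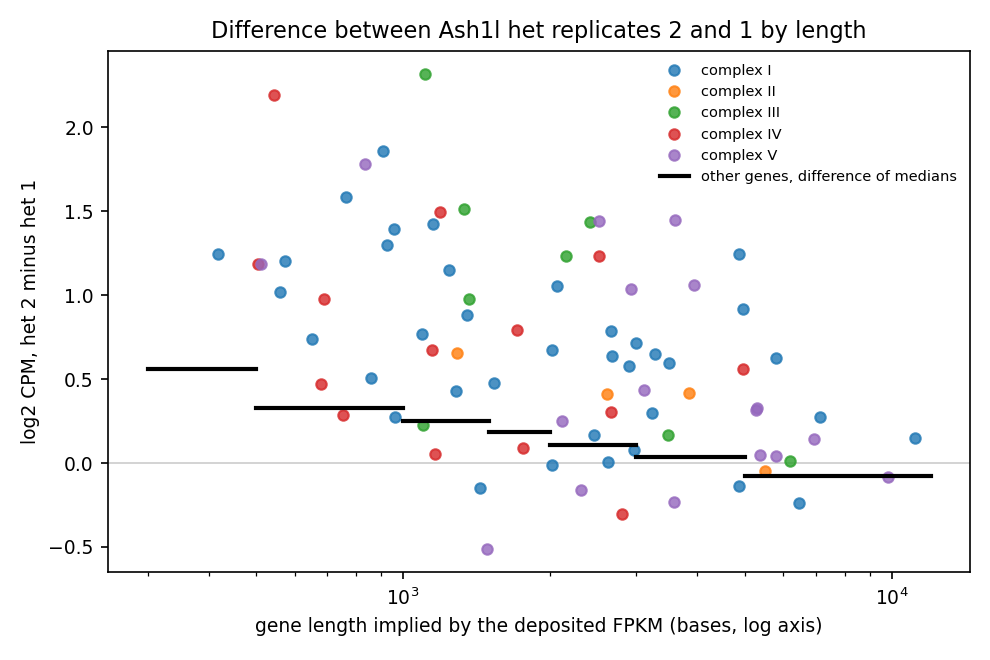
Difference in log2 CPM between Ash1l het replicates 2 and 1 for the 80 tested members against gene length on a log axis, with the difference of the medians of other genes in length bins as black lines, whose end bins are open. Most members lie above the line of other genes of similar length, and members above 5000 bases lie closer to 0.

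Ribosomal protein genes, the other large set of short nuclear genes examined, had a like order of libraries. Their median deviation was -0.16, 0.51 and 0.10 in Ash1l het replicates 1, 2 and 3. Replicate 1 was the lowest library for 37 of 75 of them and replicate 2 the highest for 57. By their median, the 13 mitochondrially encoded subunit genes did not share that order, with deviations of -0.07, -0.22 and 0.18. Single genes differed: 3 of the 13 were lowest in replicate 1 and 3 highest in replicate 2. One that had the order was mt-Nd3, at 258, 825 and 385 CPM in Ash1l het and 379, 398 and 376 CPM in WT. All transcripts with the mt- prefix together made up 17.3%, 15.9% and 18.8% of a library for Ash1l het and 16.2%, 18.8% and 16.7% for WT. Replicate 2 was thus the highest library for the median nuclear-encoded subunit and the lowest for the share of mitochondrial transcripts.

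Other genes of the pathway are given from lists of assembly factors and mitochondrial functions. None of the lists held a called gene by the edgeR quasi-likelihood test. Median deviations in Ash1l het replicates 1, 2 and 3 were -0.13, 0.16 and 0.02 for 14 complex I assembly factors and -0.20, 0.19 and 0.03 for 26 complex IV assembly factors. They were -0.17, 0.18 and -0.05 for 21 electron carriers and subunits with other symbols, among them Cycs and Cyc1. These lists had the same order of replicates 1 and 2 as the subunits, with smaller distances. For 6 complex III assembly factors the medians were -0.28, 0.03 and -0.12, and for 5 complex V factors -0.06, 0.07 and 0.20. Replicate 1 was thus below replicate 2 in these lists too. For 4 complex II factors they were 0.07, 0.03 and -0.12, with replicate 1 above replicate 2.

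Neighbouring pathways had smaller distances between replicates 1 and 2. The 17 TCA cycle genes lay at -0.04, -0.05 and 0.03, the 20 genes of mitochondrial membranes, import and dynamics at -0.02, 0.05 and 0.01, and the 19 glycolysis genes at -0.14, -0.06 and 0.03. The 19 regulators of mitochondrial biogenesis, among them Ppargc1a and Tfam, lay at 0.07, 0.06 and 0.07. The smallest unadjusted edgeR p-values among the mitochondrially encoded and neighbouring lists belonged to mt-Nd6 and Slc2a1. The gene mt-Nd6, a complex I subunit, stood at 69.2, 90.6 and 54.7 CPM in Ash1l het and 43.7, 51.4 and 56.4 CPM in WT. The gene Slc2a1, a glucose transporter, stood at 125, 110 and 117 CPM against 98.3, 92.1 and 106 CPM. Both had an adjusted p of 0.857. The mt-Nd6 groups overlapped and those of Slc2a1 did not.

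Markers of cell types differed between the same libraries. In bulk tissue, fewer cells of a type and less RNA per cell cannot be told apart. The 8 general neuron markers had median deviations of -0.29, -0.17 and 0.05 in Ash1l het replicates 1, 2 and 3, with a summed level of 4155 to 5078 CPM against 4577 to 4830 CPM in WT. The 12 spiny neuron markers lay at -0.20, -0.14 and 0.01. The 8 genes listed for interneurons, among them Pvalb, Kcnc1, Kcnc2 and Gad1, lay at -0.26, 0.05 and 0.22, with 812 to 1058 CPM against 850 to 981 CPM. Pvalb, at 6.26, 16.3 and 17.7 CPM in Ash1l het, was a small part of that sum, which is not a measure of interneurons alone. The 8 microglia markers lay at -0.01, 0.56 and -0.06, with a summed level of 348 to 520 CPM in Ash1l het and 358 to 401 CPM in WT. The 8 oligodendrocyte markers lay at 0.05, 0.43 and -0.37, with 5581 to 8209 CPM against 5468 to 6861 CPM. The microglia and oligodendrocyte sets were highest, by median and by sum, in the library where the members were highest.

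Astrocyte markers (8 genes) lay at 0.11, 0.20 and -0.28, with 3699 to 5254 CPM in Ash1l het and 4070 to 4990 CPM in WT. Their median was also highest in Ash1l het replicate 2, whereas their sum was highest in replicate 1. The 8 endothelial and mural markers lay at 0.32, 0.15 and 0.45, with 321 to 417 CPM against 265 to 325 CPM. The 5 blood markers lay at 2.24, 2.61 and 1.00, with 56.1 to 123 CPM against 23.0 to 35.4 CPM. The summed blood markers were therefore above WT in all 3 Ash1l het libraries, including those where the members were lowest and highest. All genes of these 8 cell type lists passed the filter, and none was at 0 counts in all libraries. The part of these cell types in the spread of the members was not tested.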

How the data were processed

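The 3 Ash1l het and 3 WT libraries came from a stranded kit for mRNA, per the labels. HISAT2, StringTie, edgeR, CASAVA and FastQC, with the GRCm38 build, appear in the submitters' processing notes, but their settings do not. The authors deposited raw read counts per gene, and FPKM values that scale each count by a fixed gene length and a library total: the implied length was whole to within 0.1 base for 99.1% of genes whose mean count reached 10. Library totals, from 12080663 to 18798694 counts, limit the precision of low genes.

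The deposited counts were tested with edgeR 4.0.16 in R 4.3.3 (robust quasi-likelihood), using TMM scaling, the default filter (minimum count 10, leaving 15267 genes), genotype as the single term, and Benjamini-Hochberg adjustment over all genes at 0.05. The fit was checked on simulated counts. Deviations from WT use log2 CPM with a prior count of 2. Named members are, in each complex, the 3 with the highest mean FPKM, up to 2 per direction by smallest p, tissue forms and paralogues, catalytic and core subunits, and members whose groups do not overlap; Uqcr11, Ndufb11, Atp5d, Atp5e and Atp5k were named after their values were seen, as were some members in the remarks on copies and overlaps. Members and the 20 gene lists were chosen with earlier results of these data known. Alternatives were DESeq2 1.42.0, the edgeR exact test, limma-voom (limma 3.58.1), RLE and upper-quartile scaling, no filter or a minimum of 1 CPM in 3 libraries, log2 FPKM in limma with 0.1 or 1 added, a length offset, a replicate block, removal of mitochondrial genes, a threshold of 0.10, Ndufa4 placed in complex IV, and each library left out. FPKM in place of CPM for the library order was added after seeing the data. Values of 1 named member are not reported here.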

Additional observations from a re-analysis of the deposited data

How the results depend on the processing

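Members called stayed at 0 under every alternative run. Genes called numbered 39 with DESeq2 and 39 with edgeR's exact test, and 1 to 13 with each library left out. Leaving out a library gave 14 to 64 members higher by sign, 4 to 17 members whose groups do not overlap, and medians of the log2 fold change of -0.14 to 0.19 over the members, -0.15 to 0.20 for complex I, -0.11 to 0.094 for complex II, -0.24 to 0.20 for complex III, -0.20 to 0.24 for complex IV and -0.087 to 0.16 for complex V. The groups were apart for 13 members without Ash1l het replicate 1 (16.2%, against 21.4% of all genes), 17 without replicate 2 (21.2%, 23.7%) and 6 without replicate 3 (7.5%, 28.3%), and for 9, 5 and 4 without WT replicates 1, 2 and 3 (11.2%, 6.25% and 5%, against 21.5%, 18.3% and 19.4%). The lowest of these counts by sign and of these medians came without Ash1l het replicate 2. The labels do not say whether replicate numbers pair the samples. In their deviations from the group means, same-numbered libraries correlated at 0.06, -0.08 and 0.01. Differently numbered ones ran from -0.13 to 0.13. With so few libraries per group, these values cannot show whether the samples were paired. With the replicate block 3 genes and 0 members were called and 50 members were higher by sign. For the 45 named members, 49 of 852 values under alternatives had the opposite sign and 0 passed the threshold. Outside left-out libraries these were Ndufb9 with the length offset (-0.035) and with that offset and the block (-0.041), Ndufv1 with limma-voom (-0.0037), Uqcrfs1 (0.0025) and Cox6b1 (0.010) with upper-quartile scaling, Cox5a with the length offset and block (-0.0085), and Atp5a1 with DESeq2 (-0.0004), RLE scaling (-0.0003), limma-voom (-0.0017) and the block (-0.0019). The cause was not tested.

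With each library left out, 28 named members changed sign, 18 of them without Ash1l het replicate 2 and 9 without replicate 1. Their log2 fold changes ran as follows in complexes I and II: Ndufa2 -0.098 to 0.79, Ndufa4 -0.013 to 0.31, Ndufa4l2 -0.50 to 0.12, Ndufa8 -0.074 to 0.19, Ndufb9 -0.20 to 0.20, Ndufs3 -0.15 to 0.17, Ndufs7 -0.27 to 0.016, Ndufv1 -0.12 to 0.18, Sdhb -0.13 to 0.087, Sdhc -0.090 to 0.12 and Sdhd -0.22 to 0.10. In complex III they ran as Uqcr10 -0.26 to 0.62, Uqcrb -0.042 to 0.23, Uqcrfs1 -0.36 to 0.17, Uqcrh -0.22 to 0.48 and Uqcrq -0.47 to 0.23. In complex IV they ran as Cox5a -0.24 to 0.29, Cox5b -0.27 to 0.39, Cox6a1 -0.53 to 0.092, Cox6a2 -0.055 to 0.23, Cox6b1 -0.28 to 0.26, Cox7a2 -0.0052 to 0.14, Cox7b -0.017 to 0.40 and Cox8a -0.72 to 0.29. In complex V they ran as Atp5a1 -0.10 to 0.063, Atp5g2 -0.27 to 0.064, Atp5g3 -0.33 to 0.27 and Atp5l -0.24 to 0.50.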
